A study of Mus musculus with 8 samples.

Results

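The 8 genes described here, Scn4a, Clcn1, Kcnj2, Kcnj11, Abcc9, Atp1b1, Atp1b2 and Fxyd1, encode channels and sodium pump subunits that set the excitability of the muscle membrane. They were chosen by name from the 24054 genes in the table, and all 8 have a row in it. Expression was measured by RNA-seq of SOL muscle from 4 mice lacking IRF4 in skeletal muscle (MI4KO) and 4 control mice (flox). MI4KO mice carried Irf4 flox/flox alleles and Cre expressed from the Myl1 locus, which is active selectively in skeletal muscle fibers, and flox mice carried the same Irf4 flox/flox alleles without Cre. All 8 mice were male, of the C57BL/6 strain and, by their labels, on a High fat diet. The study's text differs from the labels here, since it describes chow-fed mice and names high-fat feeding only as work under way, and the age of the sequenced mice is not given in the sources used here. Each library came from 1 mouse, and mice are named here by their group and a number from 1 to 4. The deletion is restricted to muscle fibers, so Irf4 remains in the vessel, nerve, fat and immune cells of the same tissue, and in bulk RNA fewer cells of a type and less RNA per cell cannot be told apart.

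A muscle action potential begins when voltage-gated sodium channels open and let sodium into the fiber. At rest the membrane of skeletal muscle has a large chloride conductance, and inward rectifier potassium channels help to hold the resting potential. ATP-sensitive potassium (K-ATP) channels open when cellular ATP falls. The sodium pump, made of a catalytic α subunit, a β subunit and a regulatory FXYD protein, restores the sodium and potassium gradients after activity. Mutations of Scn4a, Clcn1 and Kcnj2 are textbook causes of inherited muscle stiffness or periodic paralysis.

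The values are TMM-normalized CPM, that is, reads relative to the library total after scaling by the trimmed mean of M-values, and they are called levels below. Library totals lay between 13417512 and 16384565 reads, so that 3 reads, taken as the floor of detection, correspond to a level of 0.181 to 0.225 (counting error only). All 8 genes were far above this floor, the fewest reads being the 144 reads of Atp1b2 in MI4KO 1. Irf4 itself had levels of 0.686, 1.46, 1.58 and 1.68 in flox mice and 0.725, 0.840, 0.266 and 1.03 in MI4KO mice, from 4 to 23 reads. The Irf4 groups overlapped. Its log2 fold change was −0.45 with an SE of 0.20 (limma, unadjusted p of 0.0402, adjusted p of 1.0), and edgeR and DESeq2 gave −0.85 and −0.87 with unadjusted p of 0.0564 and 0.0583. An exact two-sided permutation test gave a p of 0.114, where 0.0286 is the smallest p that 4 mice against 4 allow. Myl1, the locus that carries Cre, had levels of 3151 to 3664 in flox mice and 2203 to 2846 in MI4KO mice. Its log2 fold change was −0.41 (SE 0.10), and its groups did not overlap, as for 2.07% of all tested genes. Only MI4KO mice carried Cre, so loss of Irf4 and the Cre allele cannot be told apart in any comparison of the groups. Markers of both fiber types were abundant, led by Myh7 of slow and Myh2 of fast fibers, with summed slow fiber levels of 38424 to 46687 in flox mice and 35435 to 43574 in MI4KO mice, and summed fast fiber levels of 53368 to 58461 and 47104 to 62696. A pair of libraries stood apart. Flox 1 held liver transcripts, with Alb at 59.8 against at most 0.416 elsewhere, and MI4KO 3 had Fkbp5 at 158.6 and Mt1 at 190.7, against 19.4 to 31.2 and 17.8 to 26.3 in the other mice. Results that rest on either are given with and without it.

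None of the 8 genes differed between MI4KO and flox mice beyond the spread between mice. With limma on log2(value + 1), 0 of 8 passed an unadjusted p under 0.05 with at least a 1.5-fold change, where 0.219% of 11865 tested genes did. At an unadjusted p under 0.05 alone the count was also 0 of 8, against 3.36% of all genes. After Benjamini-Hochberg adjustment, limma called 0% of all genes, and edgeR and DESeq2 called 0 genes as well, with 399, 371 and 248 genes at an unadjusted p under 0.05 by limma, edgeR and DESeq2. The MI4KO and flox values overlapped for all 8 genes, where 2.07% of all tested genes had groups that did not overlap. Estimates were higher in MI4KO mice for 3 genes and lower for 5 (4 and 4 under median-of-ratios or library size scaling), with a median log2 fold change of −0.05 beside −0.01 over all tested genes. The smallest unadjusted p was 0.173, for Atp1b2, and the adjusted p from limma was 1.0 for all 8, so only estimates, SEs and intervals are repeated for each gene below.

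How large a difference these mice could still hide is given by the 95% confidence intervals. For 7 of the 8 genes the interval lay within a 1.5-fold change in either direction, and only that of Atp1b2 reached past it. The count holds for these settings, as the interval of Kcnj2 ended close to the limit, at 0.674 times the flox level, and passed it in 11 of 15 other limma settings, while those of the other 6 genes passed it in 0 of 15. All 8 intervals lay within a 2-fold change, with that of Atp1b2 running from 0.630 to 1.10 times the flox level. The intervals of Fxyd1 and Kcnj11 were the narrowest.

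**Figure D1:**
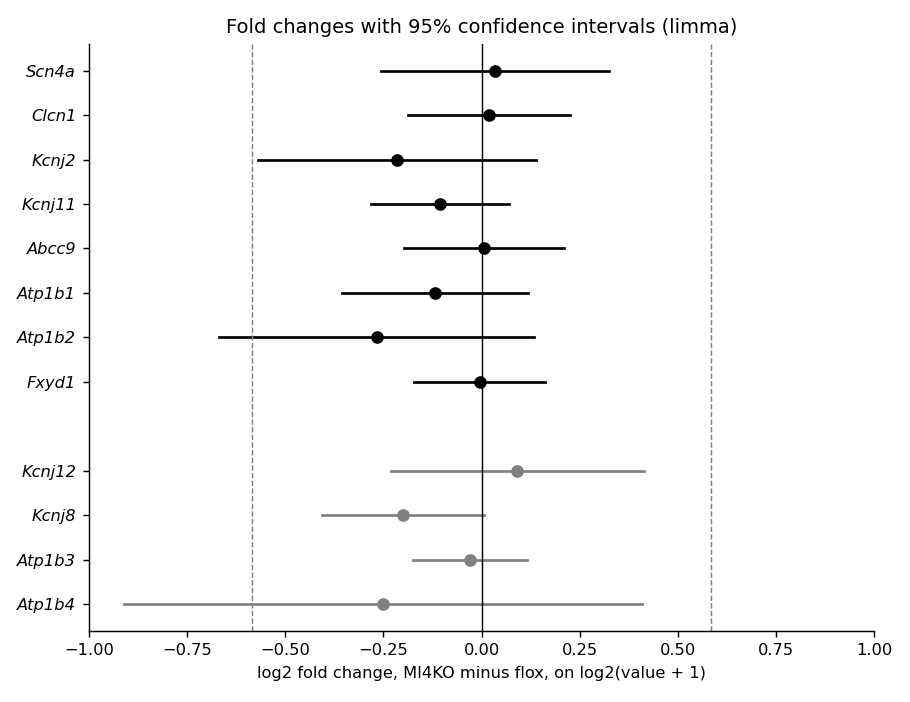
Log2 fold changes of MI4KO against flox mice (x axis, on log2(value + 1)) for the 8 genes (black) and 4 related genes (gray). Points are limma estimates from 4 mice a group, bars are 95% confidence intervals and dashed lines mark a 1.5-fold change. The bar of every gene crosses 0, and among the black bars only that of Atp1b2, from −0.67 to 0.13, crosses a dashed line.

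Scn4a encodes Nav1.4, the pore-forming sodium channel of adult skeletal muscle. The gene lies at chr11:106318592-106353288 on the minus strand of GRCm38. Its levels were 361.0, 250.8, 313 and 309.95 in flox mice, with a mean of 309 ± 45.1 (SD, n = 4). In MI4KO mice they were 254, 281.5, 358 and 378, with a mean of 318 ± 59.3 (SD, n = 4). Low and high mice were found in both groups: flox 2 and MI4KO 1 had the lowest Scn4a, MI4KO 4 and flox 1 the highest. The log2 fold change was 0.03 with an SE of 0.13, and the interval ran from 0.837 to 1.25 times the flox level. Per kilobase of exon, the scale on which different genes can be compared, the flox median of Scn4a was 44.3.

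Clcn1 encodes ClC-1, the chloride channel that carries most of the resting conductance of muscle fibers. It lies at chr6:42286685-42315756 on the plus strand. Levels were 66.4, 51.7, 59.3 and 58.5 in flox mice and 57.4, 52.9, 61.1 and 67.9 in MI4KO mice. The means of 59.0 ± 6.02 and 59.8 ± 6.34 (SD, n = 4 each) were nearly equal and the mice of the groups were interspersed. The log2 fold change was 0.02 with an SE of 0.09, and the interval ran from 0.879 to 1.17 times the flox level. Of its exon bases, 445 are shared with Fam131b on the opposite strand. The strand setting of the counting is not given in the sources used here, so reads of the pair may not be told apart. Clcn1 stood at a flox median of 10.9 per kilobase, 31.7 times Clcn2, a chloride channel found in many tissues.

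The sodium channel was set against the chloride channel within each mouse. The ratio of the Scn4a to the Clcn1 level was 5.44, 4.85, 5.28 and 5.30 in flox mice and 4.43, 5.32, 5.86 and 5.56 in MI4KO mice. A ratio within a library does not depend on the scaling between libraries. On the log2 scale its mean was 2.38 ± 0.071 in flox and 2.40 ± 0.176 in MI4KO mice (SD, n = 4), and the groups overlapped.

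Kcnj2 encodes Kir2.1, an inward rectifier that stabilizes the resting potential. It lies at chr11:111066164-111076821 on the plus strand. In flox mice its levels were almost identical, at 96.8, 98.5, 99.6 and 98.4, a coefficient of variation of 1.18%. In MI4KO mice they were 96.4, 79.4, 57.0 and 117.2, a coefficient of variation of 29.2%. The MI4KO values thus lay on both sides of the flox values, 3 below the lowest flox mouse and 1 above the highest. The means were 98.3 ± 1.16 and 87.5 ± 25.5 (SD, n = 4 each), and the log2 fold change was −0.21 with an SE of 0.16 and an interval of 0.674 to 1.10 times the flox level. The difference in spread was noticed after the values were seen and was not tested.

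The estimate for Kcnj2 turned on single mice. Without MI4KO 3, which had the lowest value, the log2 fold change was −0.03. Without MI4KO 4, which had the highest, it was −0.37 with an unadjusted p of 0.0211 and an adjusted p of 0.903 from limma. Kcnj2 had between 857 and 1939 reads in every mouse.

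Kcnj12 encodes Kir2.2, the closest relative of Kir2.1 in muscle, and its levels ran the other way in MI4KO 3. They were 74.1, 67.0, 72.2 and 73.7 in flox mice and 65.1, 63.5, 113.5 and 72.6 in MI4KO mice. The ratio of Kcnj2 to Kcnj12 was 0.502 in MI4KO 3 and between 1.25 and 1.61 in the other mice. Per kilobase, Kcnj2 stood at 0.682 times Kcnj12 in flox mice. The part that the distinct state of the MI4KO 3 library, with its high Fkbp5 and Mt1, has in these values was not tested.

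Kcnj11 encodes Kir6.2, the pore of the K-ATP channel of skeletal muscle. It lies at chr7:46093953-46100764 on the minus strand. Levels were 188.2, 168.1, 196.4 and 180.7 in flox mice, with a mean of 183.3 ± 12.0 (SD, n = 4). In MI4KO mice they were 189.8, 170.8, 152.0 and 169.7, with a mean of 170.6 ± 15.4 (SD, n = 4). MI4KO 3 was again the lowest, while MI4KO 1 lay among the highest flox mice. The log2 fold change was −0.11 with an SE of 0.08, with an interval of 0.823 to 1.05 times the flox level, and −0.05 without MI4KO 3.

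Abcc9 encodes SUR2, the sulfonylurea receptor that surrounds the pore and senses nucleotides. It lies at chr6:142587862-142702315 on the minus strand and shares 158 exon bases with the antisense gene 5330439B14Rik. Levels were 179.4, 153.4, 182.0 and 180.7 in flox mice and 152.4, 161.9, 192.2 and 194.7 in MI4KO mice. Flox 2 stood below the other 3 flox mice, and the MI4KO mice fell into a lower and a higher pair whose range enclosed that of the flox mice. The means were 173.9 ± 13.7 and 175.3 ± 21.3 (SD, n = 4 each), with a log2 fold change of 0.01, an SE of 0.09 and an interval of 0.873 to 1.16 times the flox level.

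The K-ATP subunit RNA of SOL was mainly of the Kir6.2 and SUR2 type, and bulk RNA does not show which cells either came from. Per kilobase, Kcnj11 made up 81.8% to 86.8% of the 2 Kir6 pore genes in every mouse, the rest being Kcnj8, the Kir6.1 pore known from vessels. Abcc9 made up 99.4% to 99.7% of the 2 sulfonylurea receptor genes, the rest being Abcc8, the SUR1 receptor of pancreatic β cells and neurons, at levels of 0.582 to 1.03. The ratio of the Kcnj11 to the Abcc9 level was 1.05, 1.10, 1.08 and 1.0 in flox mice. In MI4KO mice it was 1.25, 1.06, 0.791 and 0.872, and the flox values lay inside the MI4KO range.

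Kcnj8 came closest to the threshold of all related channel genes tested. Its levels were 25.0, 25.8, 23.7 and 27.8 in flox mice and 19.9, 24.7, 20.01 and 24.2 in MI4KO mice, with a log2 fold change of −0.20 (limma, unadjusted p of 0.0561, adjusted p of 1.0). Of the vascular mural cell markers, 10 of 10 (9 by edgeR or DESeq2) also had negative log2 fold changes, 1 with an unadjusted p under 0.05, and their summed level, led by Rgs5, was 344.7 to 397.5 in flox mice and 230.2 to 396.5 in MI4KO mice. Endothelial markers, led by Cdh5, had negative values in 8 of 8, of which Kdr and Cdh5 passed an unadjusted p under 0.05, with sums of 461 to 544 and 347 to 488. Slow fiber markers were also negative in 10 of 10. Fibroblast and tendon markers and red blood cell markers were each negative in 6 of 7 tested. Positive values were found for 6 of 11 fast fiber markers and for 3 of 3 tested immune cell markers. Over all tested genes, 43.8% were higher in MI4KO mice, and 3.36% had an unadjusted p under 0.05 by limma. The part of vessel cells in the Kcnj8 value was not tested.

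**Figure D2:**
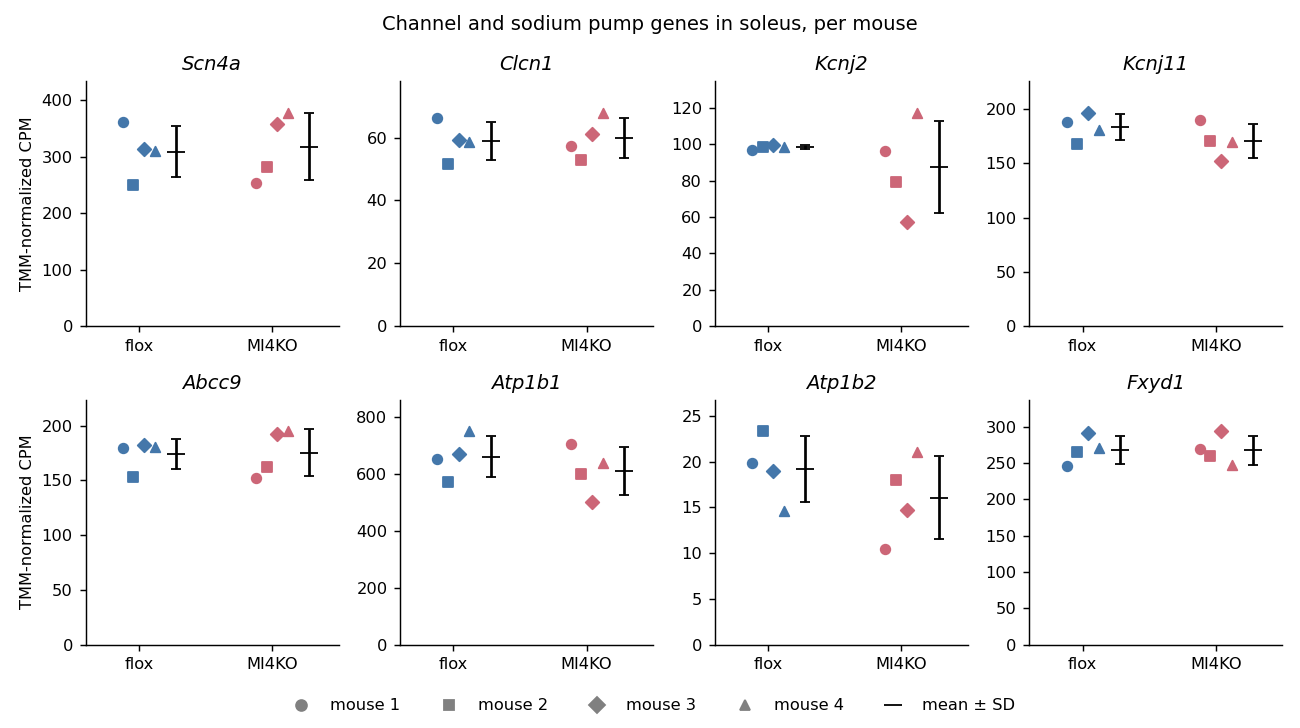
Levels of the 8 genes in SOL in TMM-normalized CPM (y axes, from 0) for each flox mouse (blue) and MI4KO mouse (red). The marker shape gives the mouse number within its group, which pairs no mice, and the bar gives the mean ± SD of 4 mice. The groups overlap for every gene, and Kcnj2 has a flox coefficient of variation of 1.18% beside 29.2% in MI4KO mice.

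Atp1b1 encodes the β1 subunit, which carries the pump to the membrane and is the β subunit typical of slow, oxidative muscle. It lies at chr1:164437109-164458355 on the minus strand and shares 575 exon bases with Nme7 on the opposite strand. Levels were 653, 569, 669.6 and 748 in flox mice and 702.6, 599, 501 and 635 in MI4KO mice. The lowest value was that of MI4KO 3 and the highest that of flox 4, with the remaining mice mixed between. The means were 659.9 ± 73.3 and 609.7 ± 84.0 (SD, n = 4 each), and the log2 fold change was −0.12 with an SE of 0.11 and an interval of 0.782 to 1.086 times the flox level. Without MI4KO 3 it was −0.03.

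Atp1b2 encodes the β2 subunit, known in muscle mainly from fast, glycolytic fibers. It lies at chr11:69599736-69605942 on the minus strand. Levels were 19.9, 23.3, 19.0 and 14.6 in flox mice and 10.4, 18.0, 14.8 and 21.0 in MI4KO mice, from 144 to 348 reads. MI4KO 1 was the lowest and flox 2 the highest, and 3 of 4 MI4KO mice lay within the flox range. The means were 19.2 ± 3.60 and 16.1 ± 4.53 (SD, n = 4 each). The log2 fold change of −0.27 with an SE of 0.18 was the largest in size among the 8 genes, and its interval the widest. Without MI4KO 1, its lowest mouse, it was −0.09, and without MI4KO 4 it was −0.40 with an unadjusted p of 0.0452 and an adjusted p of 0.948 from limma.

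The β subunits of SOL were dominated by β1. Per kilobase of exon, Atp1b1 made up 88.0% to 90.7% of the summed level of the 4 β genes and Atp1b2 only 1.01% to 2.72%. Atp1b3, the β3 subunit found in many tissues, made up 6.94% to 9.67%. Atp1b4, a muscle protein of the same family that in mammals is not known to serve the pump, made up 0.411% to 1.32%. In flox mice the level per kilobase of Atp1b1 was 45.1 times that of Atp1b2 and 11.5 times that of Atp1b3. Atp1b3 was steady, at 43.9 ± 1.34 in flox and 43.0 ± 1.10 in MI4KO mice (SD, n = 4).

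The balance of β1 to β2 varied more between mice than between groups. The ratio of the Atp1b1 to the Atp1b2 level was 32.8, 24.4, 35.3 and 51.3 in flox mice and 67.3, 33.3, 34.0 and 30.2 in MI4KO mice. MI4KO 1 had the highest ratio and the lowest Atp1b2, and the other MI4KO mice lay inside the flox range. The mean log2 ratio was 5.12 ± 0.441 in flox and 5.28 ± 0.531 in MI4KO mice (SD, n = 4).

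Levels of Atp1b2 were set beside those of Myh4, the myosin heavy chain of the fastest (type IIb) fibers, after the values were seen. Myh4 had levels of 1807, 2496, 34.5 and 35.4 in flox mice and 277.7, 831, 55.8 and 2174 in MI4KO mice, so it split both groups. The 3 mice with the highest Myh4, flox 2, MI4KO 4 and flox 1, were also the 3 with the highest Atp1b2. Among the other 5 mice the orders parted, as flox 3, with the lowest Myh4 of all, came next in Atp1b2, above MI4KO 2. MI4KO 1, the mouse with the lowest Atp1b2, had an intermediate Myh4 and the lowest sums of mural, endothelial, adipocyte and fibroblast markers. The mural sum of MI4KO 1 was 230.2, and its endothelial sum was 347. No correlation was computed, and the part of these cells in the Atp1b2 values was not tested.

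**Figure D3:**
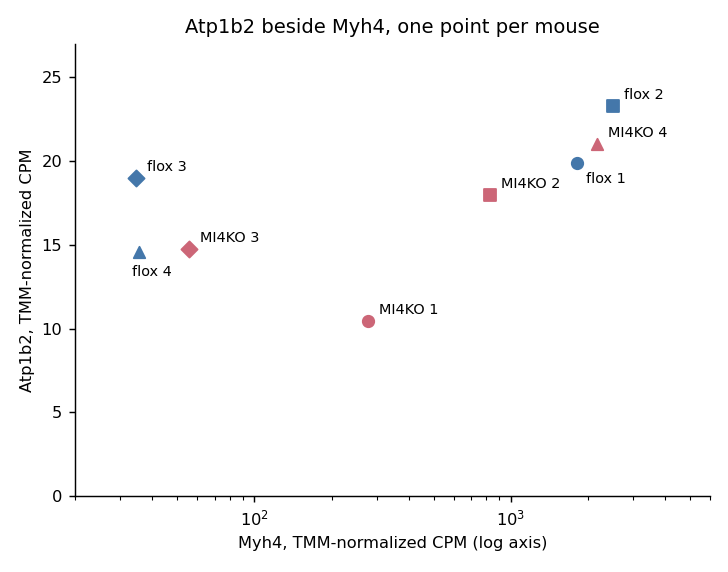
Level of Atp1b2 (y axis, from 0) against that of Myh4 (x axis, log scale), both in TMM-normalized CPM, with 1 point for each flox mouse (blue) and MI4KO mouse (red). Flox 2, MI4KO 4 and flox 1 hold the highest values of both genes, flox 3 has the lowest Myh4 at an Atp1b2 level of 19.0, and MI4KO 1 lies lowest, at an Atp1b2 level of 10.4 and a Myh4 level of 277.7.

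Fxyd1 encodes phospholemman, a small membrane protein that restrains the pump until it is phosphorylated. It lies at chr7:31051678-31057199 on the minus strand. Levels were 245.5, 264.7, 291.2 and 270.9 in flox mice and 268.6, 259.8, 293.4 and 247.4 in MI4KO mice. The groups covered nearly the same range. With means of 268 ± 18.8 and 267 ± 19.4 (SD, n = 4 each), it was the closest to no difference among the 8 genes when all mice were used, at a log2 fold change of −0.004 (SE 0.08). This place rested on the libraries that stood apart, which held its lowest and highest levels. With both left out, the log2 fold change of Fxyd1 was −0.09, and only that of Atp1b2 was larger in size, at −0.22. The sign of the Fxyd1 estimate from all mice depended on the scaling, being 0.02 after median-of-ratios scaling.

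Ordered by level per kilobase in flox mice, the 8 genes ran from Atp1b1 at a median of 214.6 through Fxyd1 at 122.5, Kcnj11 at 50.2, Scn4a at 44.3, Abcc9 at 21.5, Kcnj2 at 18.1 and Clcn1 at 10.9 to Atp1b2 at 4.76. Only the neighbours Kcnj11 and Scn4a overlapped among flox mice, at 45.7 to 53.4 and 35.6 to 51.3 per kilobase. In MI4KO mice, Abcc9 and Kcnj2 overlapped too, at 18.2 to 23.2 and 10.5 to 21.5, as did Kcnj2 with Clcn1, at 9.74 to 12.5. The first places depended on the length used. Divided by the longest transcript in place of all exons, Fxyd1 stood at 400.9 and Atp1b1 at 256.3, and the order of the other 6 genes stayed as given. The pore gene of the K-ATP channel stood above its receptor by 2.33 times and the sodium channel above the chloride channel by 4.08 times, or 2.44 and 2.84 times by the longest transcript.

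**Figure D4:**
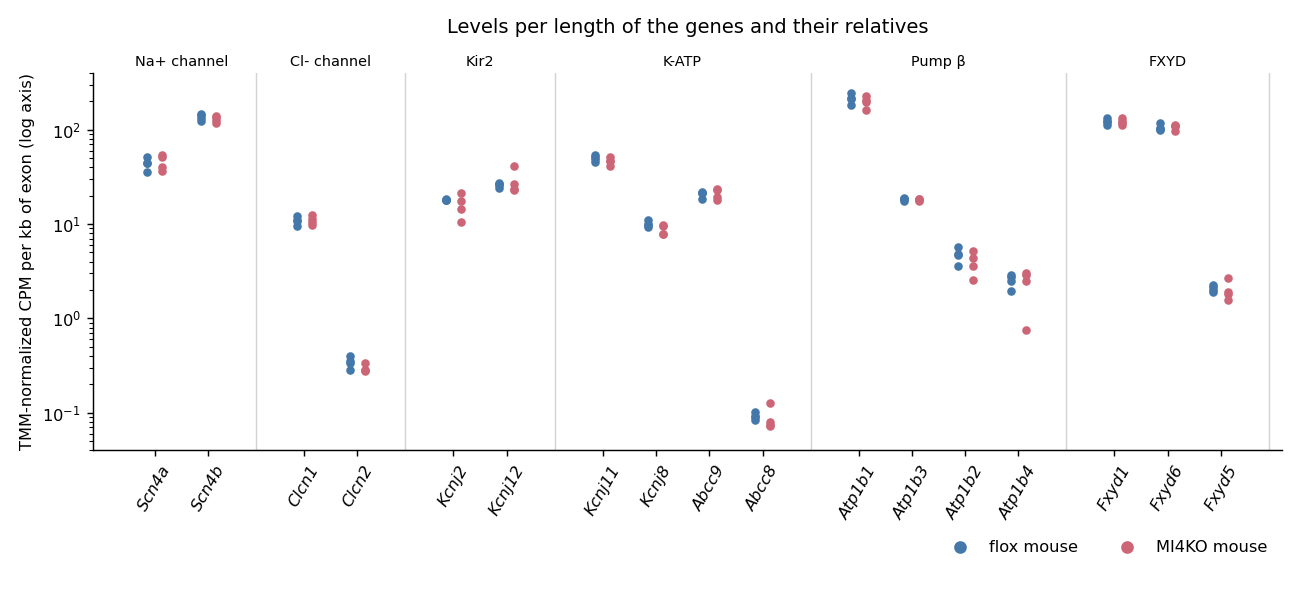
Levels per kilobase of exon (y axis, log scale) of the 8 genes and 9 relatives, grouped by channel or pump subunit, with 1 point for each flox mouse (blue) and MI4KO mouse (red). Clcn1 lies 31.7 times above Clcn2, Atp1b1 lies 45.1 times above Atp1b2, and Atp1b4 in MI4KO 3 lies below its 3 other MI4KO mice.

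The genes did not vary alike from mouse to mouse. For Scn4a, Clcn1 and Abcc9, the 3 lowest mice were the same in each case, flox 2, MI4KO 1 and MI4KO 2, and MI4KO 4 was the highest. For Scn4a these lowest mice lay 0.30, 0.28 and 0.14 below the mean of all 8 mice on the log2 scale, and for Abcc9 0.18, 0.19 and 0.10 below. In the same 3 mice the 1716 tested genes with a longest transcript of at least 6 kb had negative median deviations, of −0.07, −0.09 and −0.07, against 0.02 to 0.07 in the other 5 mice. The 1201 genes with a longest transcript under 1.5 kb had medians of 0.01, 0.02 and −0.04 in these 3 mice and of −0.11 to 0.12 in the other 5, so they were low together with the long genes in MI4KO 2 and high together with them in MI4KO 3. Transcripts of this length include those of Scn4a and Abcc9, but not Clcn1, whose longest transcript measures 3.545 kb. The part of transcript length in this shared variation was not tested.

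Kcnj2, Kcnj11 and Atp1b1 had their lowest value in MI4KO 3, which was also the highest mouse for Fxyd1 and for the Kcnj2 relative Kcnj12. Atp1b4 was at 3.19 in MI4KO 3 against 8.19 to 12.7 in the other mice. MI4KO 4 had the highest value for 4 of the 8 genes and MI4KO 3 the lowest for 3.

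**Figure D5:**
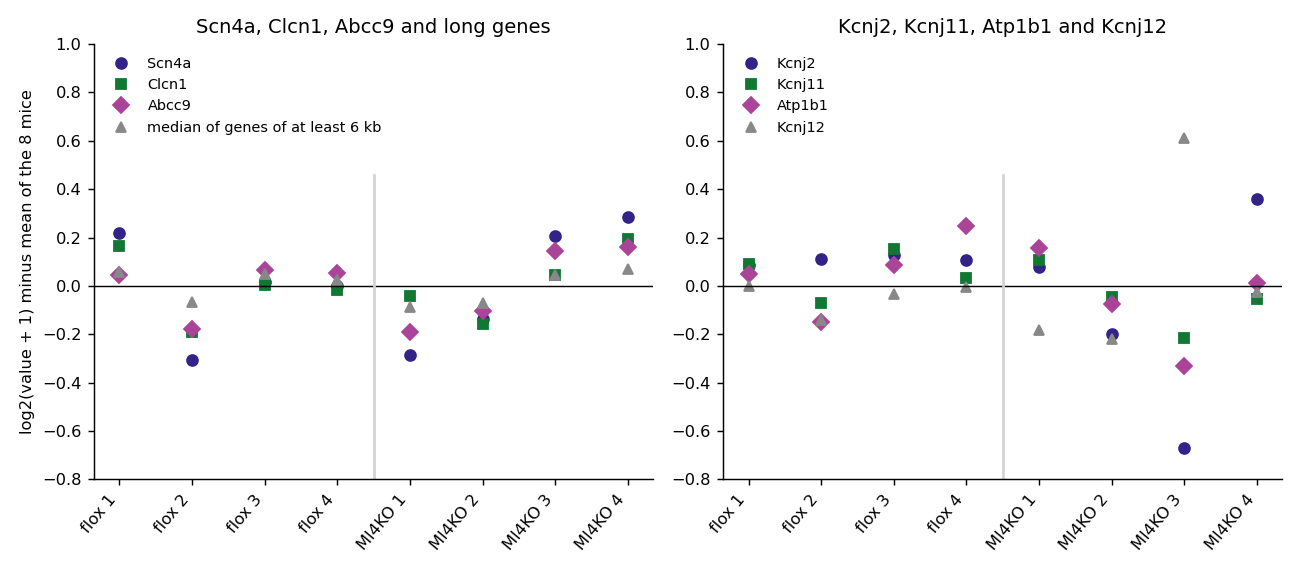
Deviation of log2(value + 1) in each mouse from the mean of the 8 mice (y axis) for Scn4a, Clcn1, Abcc9 and the median of 1716 genes with transcripts of at least 6 kb (left), and for Kcnj2, Kcnj11, Atp1b1 and Kcnj12 (right), with flox mice left and MI4KO mice right of the gray line. The genes on the left are low in flox 2, MI4KO 1 and MI4KO 2, and on the right MI4KO 3 is low for Kcnj2, Kcnj11 and Atp1b1 and high for Kcnj12.

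Likeness of pattern was measured as Pearson's r over the 8 mice on log2(value + 1), among 7338 tested genes with a mean level of at least 10. With so many genes and 8 points, high values of r arise readily, and they are given as a description. The genes most like Scn4a were Kmt2d (r = 0.991), Acacb (0.986) and Dst (0.985), whose longest transcripts measure 19.8, 8.79 and 23.3 kb. Those most like Clcn1 were Mut (r = 0.973), Pacs2 (0.963) and Xpo7 (0.963), of 3.67, 5.48 and 15.1 kb. Those most like Abcc9 were Dnajc5 (r = 0.974), Ankhd1 (0.973) and Arhgef11 (0.972), of 6.58, 8.22 and 6.78 kb. Kcnj2 was followed most closely by Dcakd (r = 0.962), Prkaa1 (0.960) and Ckap4 (0.952), and Kcnj11 by Klhl41 (r = 0.971), Arhgap24 (0.968) and Nfe2l1 (0.965). For the pump genes the nearest included Smurf1 and Trp53bp1 for Atp1b1 (r = 0.943 to 0.962), Fos, Tmod3 and Lima1 for Atp1b2 (r = 0.951 to 0.971), and Fam207a, Ddx28 and Mrpl2 for Fxyd1 (r = 0.968 to 0.980). No 2 of the 8 genes shared any of these neighbours.

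Beyond the 8 genes, 78 other channel and pump genes from a list had a row, of which 45 passed the filter on low values. By limma, 0 of 45 had an unadjusted p under 0.05 in either direction, against 3.36% of all genes, and edgeR and DESeq2 also found 0. The estimates were higher in MI4KO mice for 13 and lower for 32 (19 and 26 under library size scaling), with a median log2 fold change of −0.08. Of all tested genes, 43.8% were higher, or 59.9% under library size scaling. By role, the tested genes were 7 of 11 sodium channel subunits, 9 of 10 chloride channels, 3 of 13 inward rectifier and K-ATP subunits, 19 of 32 other potassium channels and 7 of 12 pump and FXYD subunits. The highest log2 fold change was that of Scn3a, a neuronal sodium channel, at 0.38 (limma, unadjusted p of 0.0781, adjusted p of 1.0) with levels of 0.555 to 2.26. The lowest was that of Scn2a1, another neuronal sodium channel, at −0.28 with levels of 2.86 to 6.52. Fxyd4, Kcne1 and Kcnj9 had no read in any mouse. Kcna5, a voltage-gated potassium channel, had levels of 7.98 to 16.2 except for 25.5 in MI4KO 3. Its log2 fold change was −0.15 over all mice and −0.49 without MI4KO 3 (limma, unadjusted p of 0.00191, adjusted p of 0.970), and −0.51 without flox 1 as well.

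Promoter sequences were searched because IRF4 is a DNA-binding factor of the interferon regulatory family and because MEF2 and myogenic factors drive many muscle genes. RefSeq promoters on GRCm38.p6, from 250 bases before to 50 after the start of transcription, matched 6 of the 8 genes, with none for Kcnj11 and Atp1b2. The interferon response motif, GAAA and GAAA with 2 bases between them, read on both strands, was in 0 of these 6 promoters and in 3.44% of 32851 promoters. The MEF2 motif, CTA and TAG with 4 bases between them, was in 1 of 6, that of Clcn1, against 3.69% of all promoters. The E-box CAGCTG, bound by myogenic factors, was in 2 of 6, those of Kcnj2 and Abcc9, against 16.3%. A match is a run of letters and not a shown binding site. The stretches around the matches of Clcn1 and Kcnj2 follow to show the motif of each kind in its setting, 51 to 42 and 206 to 201 bases before the start of transcription, with the motif in capitals, 5′ to 3′ on the plus strand. The E-box of Abcc9 lies before its RefSeq start, but inside the gene by the annotation used for positions. Its stretch is not shown.
Clcn1, chr6:42286614-42286663: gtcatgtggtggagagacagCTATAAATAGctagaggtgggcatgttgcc
Kcnj2, chr11:111065938-111065983: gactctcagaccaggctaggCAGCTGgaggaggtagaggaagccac

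Markers of other cells were examined beside the 8 genes. Summed levels in flox and MI4KO mice were 100.4 to 136.5 and 93.5 to 113.3 for Schwann cell and nerve markers, led by Pmp22. They were 250.3 to 314 and 192 to 285 for adipocyte markers, led by Fabp4, and 362 to 485 and 285 to 468 for fibroblast and tendon markers, led by Dcn. Immune cell markers, led by Lyz2, summed to 20.3 to 24.9 and 22.6 to 31.8, and red blood cell markers, led by Hba-a1, to 412 to 599 and 378 to 470.3. Liver markers, led by Trf, summed to 171.8 in flox 1 and to between 6.24 and 15.7 in the other mice. Of the 8 genes, flox 1 was the lowest mouse for Fxyd1 and the highest for none. Adgre1 has no row, and no other marker was at 0 in all mice. With flox 1 and MI4KO 3 both left out, limma gave no unadjusted p under 0.05 for any of the 8, and the log2 fold changes were between −0.22 and 0.07.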

How the data were processed

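RNA-seq was performed on SOL of 4 MI4KO and 4 flox mice as stranded mRNA libraries with single-end reads. According to the submitters' processing notes, bcl2fastq 2.17, Bowtie2 2.1.0, RSEM 1.2.15 and mm10 were used. The authors scaled RSEM estimates by TMM, and the signal they deposited is 1 TMM-normalized CPM per gene and mouse. The table also holds the authors' fold change, p-value and FDR, which were not used. All non-zero values (100%) were whole multiples of the value of 1 read (within 0.01 plus 0.0001 of the read number), which gave back the reads. Totals were 13417512 to 16384565 reads, and 6086 genes had none.

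Genes reaching a value of 1 in 4 or more mice were tested with limma 3.58.1 (R 4.3.3, mean-variance trend) on log2(value + 1), with Benjamini-Hochberg adjustment over all tested genes. A fold change on this scale understates that of low genes. The limits of the study, an unadjusted p under 0.05 and a 1.5-fold change, were used for counts. The study applied these limits to edgeR results and reported more SOL genes past them than any setting gave here. Alternatives were a pseudocount of 0.25, no filter, median-of-ratios or library size scaling, limma without trend or robust, edgeR 4.0.16 quasi-likelihood and DESeq2 1.42.0 on the recovered reads, the longest transcript as length, and each mouse left out. Leaving out flox 1 and MI4KO 3 together was chosen after seeing the data. The procedure was also run on simulated data, and the outcome is not reported here.

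Positions and lengths were from GENCODE M21 (GRCm38) by symbol, promoters from RefSeq. The 8 genes and all lists were chosen with earlier results of these data known. Genes named are the 8 genes, Irf4, fixed relatives (Atp1b3, Kcnj8, Kcnj12, Abcc8 and others not reported here), list genes with an unadjusted p under 0.05 or the highest and lowest fold change, the most abundant marker of each list and those at 0 in every mouse, the 3 genes most like each of the 8, and Fkbp5, Mt1 and Alb. Atp1b4, Clcn2, Kcna5, Kdr, Myh4, Myl1 and the relatives shown only in a plot (Scn4b, Fxyd5, Fxyd6) were chosen after values were seen. Mice are separate animals. The labels give no batch.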

Additional observations from a re-analysis of the deposited data

Results flagged for a closer look

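In 38 sets of 4 values, each holding 1 gene or ratio in 1 group, the highest or lowest mouse was compared with the rest by the gap to its nearest neighbour as a share of the whole range. Chance sets a mouse apart in about 1 of 20 such sets, or 1.9 of 38, and 3 were found. The 1.9 is only a rough guide, as the ratios reuse the levels of single genes and all sets share the same mice. Atp1b4 was also chosen after values were seen. Abcc9 was at 153.4 in flox 2, below the other 3 flox mice, with a gap of 0.916 of the range. Atp1b4 was at 3.19 in MI4KO 3, below the other 3 MI4KO mice, with a gap of 0.854. The log2 ratio of Atp1b1 to Atp1b2 was 6.07 in MI4KO 1, above the other 3 MI4KO mice, with a gap of 0.854.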

How the results depend on the processing

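No paired analysis was made, as the labels name no pairs of mice. The mouse numbers in the labels fall into separate runs that each hold both groups, with flox 1, MI4KO 1 and MI4KO 2 in the lower run and the other mice in the higher. Whether the runs mark litters or cohorts is not given in the sources used here, and a difference between them was not tested. Under all alternatives, 0 of the 8 genes passed the limits of the study. Without each mouse in turn, log2 fold changes ranged from −0.061 to 0.14 for Scn4a, −0.043 to 0.077 for Clcn1, −0.37 to −0.03 for Kcnj2, −0.16 to −0.05 for Kcnj11, −0.052 to 0.071 for Abcc9, −0.19 to −0.03 for Atp1b1, −0.40 to −0.09 for Atp1b2, and −0.050 to 0.036 for Fxyd1. For Irf4 they ranged from −0.60 to −0.31 in the 4 of 8 cases in which it still passed the filter on low values. With 1 mouse left out, 0 to 2 of them reached an unadjusted p under 0.05, the 2 being Kcnj2 and Atp1b2 without MI4KO 4. Fxyd1 changed sign, to 0.016 by median-of-ratios scaling, 0.040 by library size, 0.017 by edgeR and 0.013 by DESeq2, and Abcc9 to −0.023 without flox 1 and MI4KO 3. The Irf4 value was −0.75 with a pseudocount of 0.25.

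Over all genes, 26 passed the limits, against 60 with a pseudocount of 0.25, 13 with robust limma, 66 with edgeR, 51 with DESeq2 and 18 to 57 without each mouse in turn, where the 57 came without MI4KO 4. An unadjusted p under 0.05 was reached by 634 genes with no filter, 248 with DESeq2, 629 without flox 1 and MI4KO 3, and 258 (without flox 3) to 614 (without MI4KO 4) leaving out 1 mouse. An adjusted p under 0.05 was reached by 0 to 1 gene, the 1 without MI4KO 2. Of the other channel and pump genes, 0 to 4 had an unadjusted p under 0.05 without each mouse in turn, the 4 being Scn3a, Kcnj8, Ano6 and Scn7a without MI4KO 4, and 1 (Kcna5) without flox 1 and MI4KO 3. By the longest transcript, flox levels per kilobase were 16.6 for Clcn1, 58.7 for Kcnj11, 24.0 for Abcc9, 256.3 for Atp1b1 and 400.9 for Fxyd1. The differences in log2 ratio ranged from −0.10 to 0.35 for Atp1b1 to Atp1b2, −0.23 to −0.01 for Kcnj11 to Abcc9 and −0.04 to 0.10 for Scn4a to Clcn1 without each mouse in turn. The causes were not tested. Rescaling moved the median of all genes by 0.02 and 0.04. Depth limits mainly Irf4, with 4 to 23 reads.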
